A study of Homo sapiens with 72 samples.

Results

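Untreated cells of the B cell lines Raji and REH were compared for dimethylation of lysine 4 of histone H3 (H3K4me2), using 3 Cut&Tag samples of each line. Members were chosen by label: the 6 samples are those with cell line Raji or REH, no treatment and the H3K4me2 antibody, out of 72 samples in the series. Peaks of the 6 samples that overlapped on chromosomes 1 to 22 and X were merged into 23483 regions, of which 14220 lay within 1 kb of the start of a protein-coding or lncRNA gene (gene-start regions) and 9263 did not (distal regions). The study as a whole exposed Raji, REH and NALM6 cells to bryostatin, an activator of protein kinase C, as a way to alter the surface antigens that engineered T cells recognise. It profiled H3K4me2, H3K4me3 and H3K27me3 with and without the drug, next to IgG controls, and the untreated samples give the state from which each line responded. Raji is a Burkitt lymphoma line and REH a B cell acute lymphoblastic leukemia line, each grown in the same medium without added agents. Each type of malignancy is represented by 1 line, so a difference between the malignancies cannot be told apart from a difference between these particular lines. The labels do not say whether replicates were separate cultures, and the p-values below measure the spread between samples, which may be technical. In cell populations such as these, a mark carried by fewer cells and less of the mark per cell cannot be told apart.

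H3K4me2 is laid down by the KMT2 family of methyltransferases and is found at active and poised promoters, where it flanks H3K4me3, and at enhancers, where H3K4me3 is low. REH cells resemble B cell precursors that are still rearranging their immunoglobulin genes and carry the ETV6-RUNX1 fusion, which joins ETV6 to the transcription factor RUNX1. Raji cells resemble B cells of the germinal centre, where antibody genes are mutated and switched, and they harbour Epstein-Barr virus (EBV).

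The sequences below were chosen, after the values were seen, from genes and regions described here that were called in a single line or led a ranking, to show the short motifs counted at distal regions, and they are not a sample of all regions. The promoters are 300 bases each, running from 250 bases before to 50 bases after a RefSeq transcript start (build GRCh38.p14), and are written on the strand of the gene. Of the 111 genes that the naming rule of this comparison gave, 87 had an entry in the RefSeq promoter table. Capitals mark each match, on either strand, to a searched motif: ATGCAAAT of POU2F (OCT) factors, CACCTG of E proteins, TCCCNNGGG of EBF factors, TGTGGTT of RUNX factors, AGATAA of GATA factors and TGANTCA of AP-1. Of 35116 RefSeq promoters, 1.77% held ATGCAAAT, 20.6% CACCTG, 8.86% TCCCNNGGG, 4.27% TGTGGTT, 10.3% AGATAA and 7.71% TGANTCA. The promoters of KCNN3, at 1 of its 3 RefSeq starts (chr1:154859827-154860126, minus strand), of SERPINA9 (chr14:94476148-94476447, minus strand) and of MEF2B (chr19:19170214-19170513, minus strand) lay in regions called in Raji alone and held ATGCAAAT, in 2 copies at KCNN3 and SERPINA9. Those of DNTT (chr10:96304184-96304483, plus strand) and LEF1 (chr4:108166252-108166551, minus strand) lay in regions called in REH alone and held no ATGCAAAT. Over all promoters of the table that overlapped a gene-start region, ATGCAAAT was found in 12 of 407 (2.95%) for Raji alone and 16 of 1763 (0.908%) for REH alone. It was found in 21 of 2296 (0.915%) at regions higher in Raji, 38 of 2452 (1.55%) at regions higher in REH and 63 of 5871 (1.07%) at tested regions that were not called, so the 2 kinds of difference had opposite orders, with no test.
KCNN3: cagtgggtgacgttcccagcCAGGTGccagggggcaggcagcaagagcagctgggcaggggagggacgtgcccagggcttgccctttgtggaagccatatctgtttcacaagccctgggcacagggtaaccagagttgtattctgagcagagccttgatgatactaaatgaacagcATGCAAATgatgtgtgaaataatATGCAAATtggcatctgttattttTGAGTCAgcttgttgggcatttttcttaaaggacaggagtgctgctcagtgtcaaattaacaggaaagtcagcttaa
SERPINA9: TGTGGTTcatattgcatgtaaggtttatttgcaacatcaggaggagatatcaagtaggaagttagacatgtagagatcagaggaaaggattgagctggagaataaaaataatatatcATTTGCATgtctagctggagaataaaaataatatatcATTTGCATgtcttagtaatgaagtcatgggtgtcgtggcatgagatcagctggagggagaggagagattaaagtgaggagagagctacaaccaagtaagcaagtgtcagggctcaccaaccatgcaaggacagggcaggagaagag
MEF2B: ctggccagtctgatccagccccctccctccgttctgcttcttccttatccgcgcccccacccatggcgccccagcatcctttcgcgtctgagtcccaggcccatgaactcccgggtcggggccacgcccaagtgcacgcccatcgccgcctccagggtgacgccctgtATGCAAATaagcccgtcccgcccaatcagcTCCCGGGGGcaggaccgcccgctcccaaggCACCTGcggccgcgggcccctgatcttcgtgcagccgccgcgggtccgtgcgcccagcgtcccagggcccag
DNTT: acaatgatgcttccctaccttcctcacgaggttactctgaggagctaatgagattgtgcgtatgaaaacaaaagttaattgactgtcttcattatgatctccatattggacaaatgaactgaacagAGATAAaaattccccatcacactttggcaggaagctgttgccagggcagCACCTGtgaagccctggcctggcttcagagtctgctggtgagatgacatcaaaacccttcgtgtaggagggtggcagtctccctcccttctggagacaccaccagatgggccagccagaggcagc
LEF1: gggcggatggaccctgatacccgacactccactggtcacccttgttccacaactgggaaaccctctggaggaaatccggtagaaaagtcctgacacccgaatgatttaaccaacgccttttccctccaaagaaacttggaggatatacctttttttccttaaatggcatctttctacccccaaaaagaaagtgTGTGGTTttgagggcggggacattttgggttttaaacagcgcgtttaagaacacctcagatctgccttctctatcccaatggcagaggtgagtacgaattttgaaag

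The distal windows are 300 bases centred on the strongest stretch of a region, read from the hg38 genome on the plus strand. The window nearest to TOP3B (chr22:22025806-22026105) lay in the distal region with the largest difference in favour of Raji, at the edge of the immunoglobulin lambda locus. The first annotated segment of that locus begins at chr22:22026076, inside this window. Starts of immunoglobulin segments were not counted as gene starts, so regions over them could be classed as distal. The windows in introns of BAHCC1 (chr17:81429756-81430055) and CBFA2T3 (chr16:88925256-88925555) lay in distal regions called in REH alone, and the capitals there mark TCCCNNGGG (2 overlapping matches at BAHCC1), and in the CBFA2T3 window also TGANTCA and the CTCF motif CCACNAGGG.
TOP3B: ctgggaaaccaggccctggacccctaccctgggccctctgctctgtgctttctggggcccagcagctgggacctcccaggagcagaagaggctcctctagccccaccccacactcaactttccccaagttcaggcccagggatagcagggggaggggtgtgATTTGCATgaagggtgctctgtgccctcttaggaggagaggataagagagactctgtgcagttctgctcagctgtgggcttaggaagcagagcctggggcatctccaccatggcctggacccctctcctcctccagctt
BAHCC1: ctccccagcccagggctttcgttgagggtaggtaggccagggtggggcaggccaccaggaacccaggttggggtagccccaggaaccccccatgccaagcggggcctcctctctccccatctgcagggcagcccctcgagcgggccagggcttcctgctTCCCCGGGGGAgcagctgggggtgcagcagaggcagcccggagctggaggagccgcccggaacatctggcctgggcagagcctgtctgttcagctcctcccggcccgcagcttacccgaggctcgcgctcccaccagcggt
CBFA2T3: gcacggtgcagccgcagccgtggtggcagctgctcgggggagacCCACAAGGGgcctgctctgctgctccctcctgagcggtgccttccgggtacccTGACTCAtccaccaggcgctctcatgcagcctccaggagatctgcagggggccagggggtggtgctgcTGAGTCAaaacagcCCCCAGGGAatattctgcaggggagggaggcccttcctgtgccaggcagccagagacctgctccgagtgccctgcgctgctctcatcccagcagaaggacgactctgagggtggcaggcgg

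Depth and peak number differed between samples, and Raji replicate 2 stood apart. The mapped reads behind the coverage, read from the step between neighbouring values, numbered 8.31 M, 6.70 M and 13.86 M in Raji replicates 1 to 3 and 18.83 M, 15.35 M and 13.75 M in REH. The peaks numbered 19625, 10460 and 14630 in Raji and 17778, 14001 and 13520 in REH. Raji replicate 2 had the fewest reads and the fewest peaks, and a region counts as called in Raji alone only if that sample has a peak there. The mean number of mapped reads was 9.62 M ± 3.76 in Raji and 16.0 M ± 2.60 in REH (SD, n = 3; exact two-sided permutation p = 0.2), and 3 samples against 3 cannot give a p below 0.1. Mean peak numbers were 14900 ± 4590 and 15100 ± 2330 (exact permutation p = 1.0). The part of the lower depth of Raji in the counts of regions called in REH alone was not tested beyond the equal peak numbers given below. Over the regions called in all 6 samples, Pearson's r across regions was 0.91 to 0.98 between samples of the same line and 0.63 to 0.67 between lines.

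After centring of each sample on its median, nearly equal numbers of the 7999 regions called in all 6 samples were higher in either line. The signal of a region in a sample was the sum of the authors' total peak signal, on a log2 scale centred on the median of these 7999 regions, and below it is given as relative signal, with 1 for the median region. The limma test called 1902 regions higher in Raji and 1842 higher in REH (Benjamini-Hochberg adjusted p below 0.05). The centring itself favours an even split, and without it the counts were 696 and 2129. At gene starts 1770 of 7504 regions (23.6%) were higher in Raji and 1682 (22.4%) higher in REH. At distal places 132 of 495 regions (26.7%) were higher in Raji and 160 (32.3%) higher in REH. Most differences were small: the median absolute log2 difference was 0.34 at gene starts and 0.51 at distal regions. Differences beyond 2-fold were found at 11.8% of gene-start regions and 26.7% of distal regions, with no test of that contrast. Of all tested regions, 168 differed by more than 2 on the log2 scale, and 144 of them were gene starts.

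Gene starts were called in both lines more often than distal places. Of gene-start regions 52.8% had a peak in all 6 samples, against 5.34% of distal regions, so most distal regions could be compared by presence alone. A gene-start region was called in all 3 Raji and in no REH sample in 528 cases (3.71%), and in all 3 REH and in no Raji sample in 1916 cases (13.5%). Among distal regions the counts were 547 for Raji (5.91%) and 1262 for REH (13.6%). No p is attached to these counts. Raji replicate 2 decided them in part: without it, 1069 gene-start and 2110 distal regions were called in Raji alone, against the same 1916 and 1262 in REH, so the order of the lines at distal regions turned. It also turned with peaks required in at least 2 of 3 samples of a line and none of the other, which gave 2120 distal regions for Raji and 1693 for REH, and 1075 and 2149 at gene starts. With the 10460 strongest peaks of every sample, the counts were 1011 for Raji and 1678 for REH at gene starts, and 556 and 732 at distal regions. Below, "Raji alone" and "REH alone" mean a peak in 3 of 3 samples of that line and 0 of 3 of the other.

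**Figure D1:**
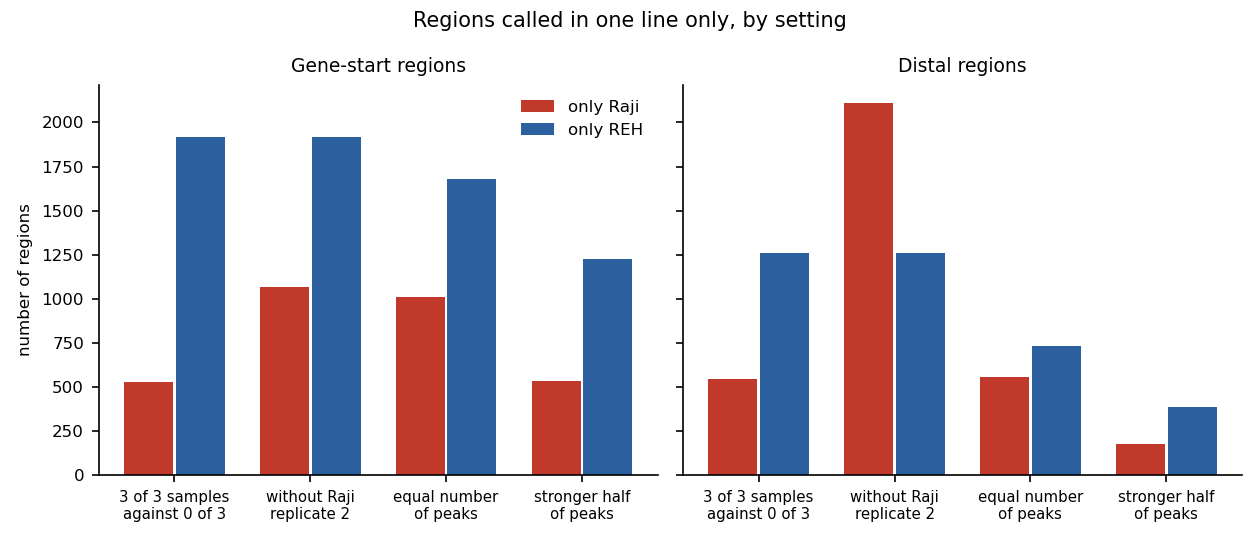
Number of regions called in all samples of a single line and in none of the other (vertical axis, from 0), for gene-start regions (left) and distal regions (right), under 4 ways of counting peaks; red bars stand for Raji and blue bars for REH. REH alone exceeds Raji alone at gene starts under all 4, and at distal regions under 3 of these 4, the exception being the count without Raji replicate 2 (2110 against 1262).

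The defining genes of the B lineage, used to check the labels, carried H3K4me2 at their starts in both lines, except IKZF3, a factor of lymphocyte maturation, which had a peak in 2 of 3 Raji and 0 of 3 REH samples. The other 11 of 12 were called in all 6 samples, 3 higher in Raji, 3 higher in REH and 5 not called by limma. Over all protein-coding genes with a tested start, 22.2% were higher in Raji and 22.5% higher in REH, and of all 19962 genes 1.57% had a start called in Raji alone and 7.00% in REH alone. The median log2 difference (Raji minus REH) of the B lineage genes was -0.10, beside -0.01 over all genes tested. PAX5, the factor that commits cells to the B lineage, had relative signals of 11.5, 11.7 and 11.2 in Raji and 10.3, 12.7 and 11.7 in REH. These ranges overlapped and the log2 difference was -0.01 ± 0.11 (SE, adjusted p = 0.962), but by maximum signal PAX5 was higher in Raji (log2 0.54, adjusted p = 0.0228), as it was after quantile normalization (log2 0.24, adjusted p = 0.0033).

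CD22, an inhibitory co-receptor of B cells and the antigen at the centre of the study, had more signal over its start in Raji. The region (chr19:35327621-35336420, hg38) had relative signals of 2.73, 3.46 and 3.26 in Raji and 1.80, 2.35 and 2.21 in REH. All 3 Raji samples lay above all 3 REH samples, by 0.57 ± 0.13 on the log2 scale (adjusted p = 0.00292). The called stretch was longer in Raji, with a mean of 6913 bp against 4460 bp, and the signal per called base was lower there by 0.44 on the log2 scale, which limma did not call (adjusted p = 0.0834). By maximum signal the difference was 0.14 (adjusted p = 0.558). In the separate bryostatin-treated samples the log2 difference at CD22 was 0.94, and for H3K4me3 in untreated cells it was 1.41.

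Among the transcription factors and signalling partners of the B lineage, the lines differed in both directions. EBF1, a factor that acts with PAX5 early in B cell development, had 1.35, 0.83 and 1.32 in Raji and 3.80, 4.41 and 3.97 in REH, with no overlap and a log2 difference of -1.83 ± 0.17 (adjusted p = 1.37e-06). TCF3, which encodes the E proteins E12 and E47, was also higher in REH (log2 -0.93, adjusted p = 2.59e-05). SPIB, an ETS factor of mature B cells, was higher in Raji by 1.04 (adjusted p = 3.56e-05), and CD72, a co-receptor, by 1.32 (adjusted p = 9.68e-07). The Raji and REH samples did not overlap at any of these 4 genes. The region of SPIB also holds a start of POLD1, and that of CD72 a start of SIT1. Neither signal can be assigned to the named gene alone. By maximum signal CD72 turned to -0.15 (adjusted p = 0.508) and TCF3 was no longer called (log2 -0.40, adjusted p = 0.0588), nor was SPIB by signal per called base (log2 0.46, adjusted p = 0.0658).

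Genes of precursor B cells were marked in REH. Of 14 listed genes, 10 were called in REH alone and none in Raji alone. Their summed relative signal was 43.0 to 48.0 in the REH samples and 0.613 to 1.96 in the Raji samples. DNTT, the polymerase that adds untemplated bases to immunoglobulin joints, had 5.40, 6.03 and 5.09 in REH and no peak in Raji. The DNTT region spanned chr10:96292831-96310870 and included the promoter printed above. RAG1, which cuts the immunoglobulin genes for rearrangement, had 1.02, 1.25 and 1.06 in REH and no peak in Raji. The highest values in the list belonged to ERG, an ETS family factor of stem cells and leukemias, with 9.93, 11.7 and 9.75. LEF1, a factor of the WNT pathway, had 4.88, 5.16 and 4.46. SOCS2, an inhibitor of cytokine signalling, had 4.35, 4.62 and 5.06. The remaining members, CD34, IGLL1, IL7R and SOX4, are named here because they were the exceptions. IGLL1, part of the surrogate light chain, had 7.44, 9.04 and 8.38 in REH and weak peaks of 0.274 and 0.28 in Raji replicates 1 and 3, and SOX4, a factor of early lymphocytes, was not called by limma (log2 0.12, adjusted p = 0.622), but by signal per called base it was higher in Raji (log2 0.59, adjusted p = 0.0153).

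All 10 listed genes of ETV6-RUNX1 leukemia had more total signal in REH. Limma called 3 of them higher in REH (KCNN1, EPOR and TCFL5), and 7 were called in REH alone. KCNN1, a calcium-activated potassium channel, had relative signals of 0.447, 0.650 and 0.737 in Raji and 6.76, 8.02 and 8.01 in REH, the largest difference of the list (log2 -3.66 ± 0.16, adjusted p = 2.41e-09). BIRC7, an inhibitor of apoptosis, had 4.68, 5.44 and 5.99 in REH, SOX11, a developmental factor, 3.99, 4.21 and 4.36, and IGF2BP1, an RNA-binding protein, 2.90, 3.37 and 3.18, all with no Raji peak. ARHGEF4, a guanine nucleotide exchange factor, had 1.69, 1.51 and 2.02 in REH, again with no Raji peak. EPOR, the erythropoietin receptor, was higher in REH by a small margin (1.88, 1.78 and 2.29 against 1.43, 1.67 and 1.26, log2 -0.45 ± 0.14, adjusted p = 0.0173). For EPOR the call was lost without Raji replicate 3 (log2 -0.35) or without REH replicate 3 (adjusted p up to 0.0971), and the signal per called base differed by 0.06. Centred within each chromosome it was not called (adjusted p = 0.073). TCFL5, a bHLH factor, differed by -0.44 (adjusted p = 0.0357) and was not called by signal per called base (log2 -0.38, adjusted p = 0.156).

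Germinal centre genes were split, with Raji ahead. Of 17 genes, 11 were tested, of which 5 were higher in Raji, 3 were higher in REH and 3 were not called. The other 6 were called in Raji alone. SERPINA9, a protease inhibitor of germinal centre B cells, had 3.25, 3.26 and 3.83 in Raji, MEF2B, a factor that activates BCL6, had 4.0, 3.86 and 5.69, and CXCR5, the receptor that guides B cells into follicles, had 1.97, 2.43 and 3.38. None of the 3 had a peak in REH. GCSAM, a regulator of B cell motility, had 1.58, 0.914 and 2.01 in Raji and 0.567, 0.577 and 0.525 in REH, which did not overlap (log2 1.36 ± 0.22, adjusted p = 0.000259), but its maximum signal turned to -0.16 (adjusted p = 0.513) and its signal per called base was not called (log2 0.19, adjusted p = 0.484). MYBL1, a MYB family factor, was higher in Raji by 0.64 (adjusted p = 0.000472), a call lost by signal per called base (log2 0.39, adjusted p = 0.11) and by maximum signal (log2 0.16, adjusted p = 0.462). S1PR2, which shares its region with DNMT1, was also counted as higher in Raji (log2 0.37, adjusted p = 0.0385). It was called higher in REH by signal per called base (log2 -0.93, adjusted p = 0.00187) and by maximum signal (log2 -0.94, adjusted p = 0.000347).

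The 3 germinal centre genes higher in REH were LMO2, BCL6 and ELL3. LMO2, a scaffold of transcription factor complexes, had 0.497, 0.513 and 0.599 in Raji and 1.76, 1.76 and 2.06 in REH (log2 -1.80 ± 0.14, adjusted p = 2.44e-07). BCL6, the repressor that maintains the germinal centre state, had 1.48, 0.426 and 1.53 in Raji and 2.47, 2.04 and 2.35 in REH. The groups did not overlap, yet Raji replicate 2 was far below the other Raji samples. The log2 difference was -1.20 ± 0.36 (adjusted p = 0.0141) with it and -0.54 without it, and without REH replicate 1 the call was lost (adjusted p = 0.055). It was also lost by signal per called base (log2 -0.36, adjusted p = 0.223) and by maximum signal (log2 -0.49, adjusted p = 0.068). In bryostatin-treated samples the log2 difference at BCL6 was 0.01. ELL3, an elongation factor that shares its region with SERF2, was named because it completes the count (log2 -0.42, adjusted p = 0.0111).

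Genes of mature and activated B cells lay on the Raji side. Of 15 genes, 5 were higher in Raji and 7 called in Raji alone, with none higher or alone in REH. The median log2 difference of the 5 tested genes was 2.01. Over all 15 genes, the summed signal was 23.8 to 32.1 in Raji and 4.46 to 4.62 in REH. CD27, a TNF receptor family member of memory and germinal centre B cells, had 4.13, 4.21 and 4.46 in Raji and 0.324, 0.407 and 0.324 in REH (log2 3.61 ± 0.13, adjusted p = 6.26e-10). CCR7, a receptor for homing to lymph nodes, had 3.39, 3.28 and 3.59 against 0.470, 0.544 and 0.462 (log2 2.80 ± 0.12, adjusted p = 2.24e-09). TNFRSF13B (TACI), a receptor for the survival factors BAFF and APRIL, was higher by 2.01 (adjusted p = 1.62e-07). TNFRSF13C, the BAFF receptor, was higher by 0.65 (adjusted p = 0.00089), but by signal per called base or maximum signal it turned to -0.32 and -0.16, neither called. The remaining tested gene, on chromosome 20, was higher by 0.44 (adjusted p = 0.016), but not when centred within its chromosome (log2 -0.07, adjusted p = 0.701). By signal per called base and maximum signal that gene turned to -0.31 and -0.16, neither called. The costimulatory ligands CD80 (4.21, 3.53 and 4.47) and CD86 (2.15, 1.84 and 2.82), the chemokine receptor CCR6 (1.76, 1.13 and 1.37) and the Fc receptor-like gene FCRL3 (1.31, 0.870 and 1.54) had peaks in Raji alone.

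Some B cell receptor signalling and NF-kB genes were higher in Raji. Of 12 receptor signalling genes, 10 were tested, of which 3 were higher in Raji, beside 22.2% of all genes tested, and none in REH, beside 22.5%. The other 7 were not called, and 1 gene was called in Raji alone. PIK3CD, the lymphocyte PI3 kinase subunit, had 7.31, 7.07 and 7.15 in Raji and 1.95, 2.14 and 2.47 in REH (log2 1.72 ± 0.11, adjusted p = 5.95e-08). LYN, a SRC family kinase, had 3.93, 3.75 and 4.27 against 1.26, 1.13 and 1.49 (log2 1.63 ± 0.12, adjusted p = 2.47e-07), and SYK, the kinase recruited to the activated receptor, was higher by 1.25 (adjusted p = 7.24e-06). At SYK the call was lost by signal per called base (log2 0.21, adjusted p = 0.431) and by maximum signal (log2 0.20, adjusted p = 0.367). At LYN the signal per called base differed by only -0.02 (adjusted p = 0.957) and the maximum by 0.35 (adjusted p = 0.0872). Of 12 NF-kB and EBV-responsive genes, 7 were tested, of which 3 were higher in Raji and none in REH, and 3 more were called in Raji alone. TRAF1, an adaptor of TNF receptors, had 5.53, 4.78 and 4.95 against 1.17, 1.13 and 1.36 (log2 2.06 ± 0.12, adjusted p = 1.57e-08), while its signal per called base turned to -0.34 (adjusted p = 0.165) and its maximum was not called (log2 0.31, adjusted p = 0.134). EBI3, a cytokine subunit first found as an EBV-induced gene, had 1.46, 1.27 and 1.54 in Raji alone, and the chemokines CCL22 (0.681, 0.446 and 0.742) and CCL4 (0.528, 0.446 and 0.398) were also called in Raji alone. CD83, an activation marker, was higher by 0.74 (adjusted p = 0.00864), with a signal per called base of -0.25, not called. BIRC3, an NF-kB target that blocks apoptosis, completes the count (log2 0.85, adjusted p = 0.0417), but by maximum signal it was higher in REH (log2 -0.52, adjusted p = 0.0313).

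Antigen presentation, killing ligands and plasma cell genes gave smaller or mixed differences. The region used for CIITA, the master regulator of MHC class II, had 2.86, 2.77 and 3.78 in Raji and 3.08, 3.07 and 3.25 in REH. The samples overlapped, with a log2 difference of -0.01 ± 0.13 (adjusted p = 0.949). This region (chr16:10936431-10946940) lies at the upper end of the coordinates of CIITA (chr16:10866222-10943021). It also holds starts of CLEC16A and DEXI, so its signal cannot be assigned to CIITA alone. Of 12 MHC class II genes, 7 were tested, of which 2 were higher in Raji and none in REH. HLA-DPB1, a chain of HLA-DP, had 1.59, 1.57 and 2.00 against 0.920, 1.09 and 0.896 (log2 0.82, adjusted p = 0.000293). That call was lost by signal per called base (log2 0.26, adjusted p = 0.391) and by maximum signal (log2 0.23, adjusted p = 0.36). The other, HLA-DMB, a chain of the peptide-loading factor, had overlapping samples (log2 0.43, adjusted p = 0.0465) and a signal per called base of 0.12, not called. Of 30 killing ligands and adhesion genes, 18 were tested, of which 6 were higher in Raji and 4 higher in REH. Of all genes tested, 22.2% and 22.5% were. In the same list 1 gene was called in REH alone and 3 had no region. CD58, the adhesion ligand of CD2, was higher in Raji (2.45, 2.15 and 2.12 against 1.34, 1.28 and 1.37, log2 0.75, adjusted p = 0.000128), as was NCR3LG1, the ligand of the NK receptor NKp30 (log2 0.84, adjusted p = 0.00159), the latter without a call by signal per called base (log2 0.20, adjusted p = 0.488) or maximum signal (log2 0.41, adjusted p = 0.193). NECTIN2, a ligand of the NK receptor DNAM-1, was higher in REH (1.66, 1.66 and 1.89 against 1.06, 0.558 and 0.667, log2 -1.24, adjusted p = 0.000169), as was ULBP2, a ligand of NKG2D (log2 -0.72, adjusted p = 0.00281). At NECTIN2 the called length was 1627 bp in Raji and 4333 bp in REH, and neither the signal per called base (log2 -0.12, adjusted p = 0.625) nor the maximum signal (log2 -0.01, adjusted p = 0.979) was called. CD244, a SLAM family receptor, had weak peaks of 0.622, 0.357 and 0.336 in REH alone.

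Of 6 plasma cell genes, only 2 were tested, both higher in REH, and 1 was called in REH alone. The other 3 were called in some samples and lay on both sides. PRDM1 had a peak in 3 of 3 Raji and 1 of 3 REH samples, and JCHAIN in 2 of 3 and 0 of 3. IRF4 had a peak in 2 of 3 Raji and 3 of 3 REH samples. SDC1 (CD138), a heparan sulfate proteoglycan of plasma cells and epithelia, had 4.41, 4.29 and 4.54 in REH and no peak in Raji. MZB1, a chaperone of antibody assembly, had 7.21, 8.14 and 7.79 in Raji and 10.9, 12 and 12.9 in REH (log2 -0.63, adjusted p = 0.000278), which was not called by maximum signal (log2 -0.18, adjusted p = 0.435). The MZB1 region also holds starts of PROB1 and SLC23A1. XBP1, a factor of the secretory response, was higher in REH by total signal (log2 -0.73, adjusted p = 0.000704), but its signal per called base turned to 0.35, not called (adjusted p = 0.177), and the maximum differed by -0.15 (adjusted p = 0.523).

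**Figure D2:**
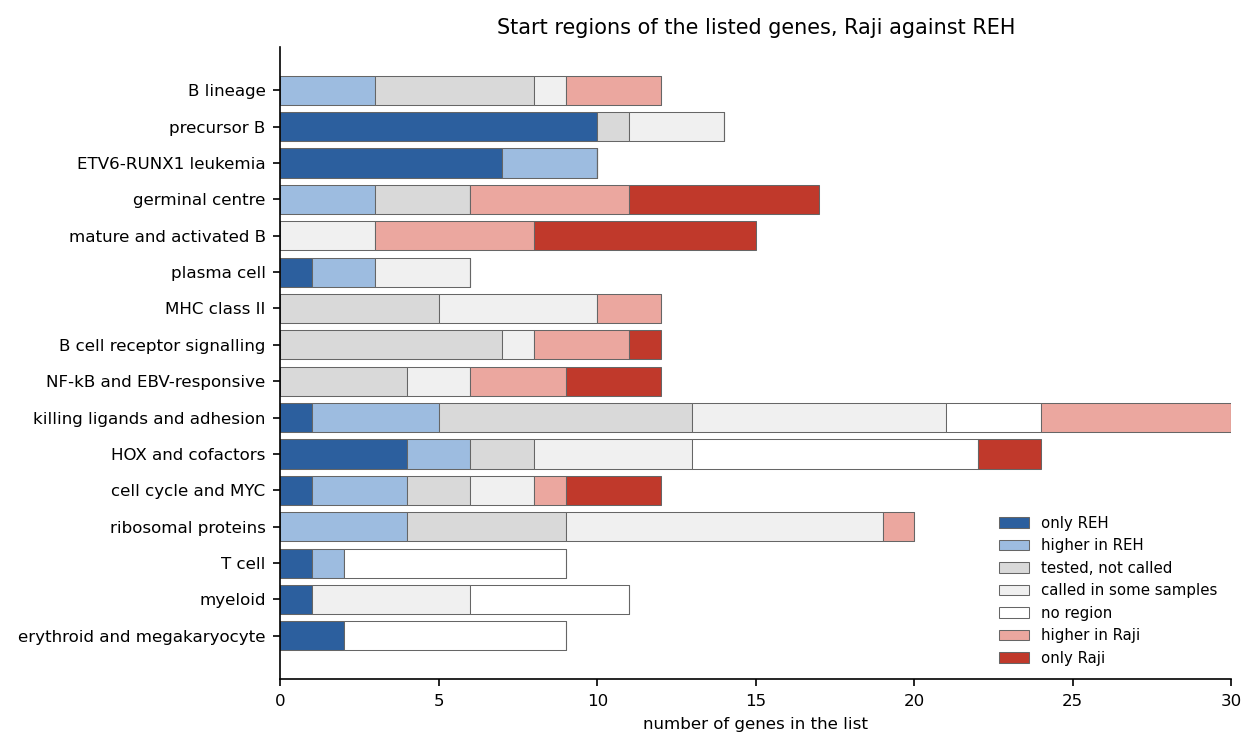
Number of genes of each list (horizontal axis) whose start region was called in REH alone, higher in REH, tested and not called, called in some samples, without a region, higher in Raji, or called in Raji alone, 1 bar per list. The precursor B and ETV6-RUNX1 leukemia bars hold no red, and the bar of mature and activated B genes holds no blue.

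Cell cycle genes included a stretch of chromosome 9 with no REH peak. CDKN2A, which encodes the inhibitors p16 and p14ARF, had 1.15, 1.33 and 1.11 in Raji, CDKN2B, which encodes p15, had 0.621, 0.504 and 0.273, and MTAP, a methionine salvage enzyme next to both, had 0.433, 0.426 and 0.583. None had a peak in REH. The interval from the start of MTAP to the end of CDKN2B (chr9:21802636-22009305, hg38, 206.7 kb) held 0 peaks in each of the 18 REH samples of the 3 marks with and without bryostatin, and 0 in each of the 18 NALM6 samples. It held 3, 3 and 4 H3K4me2 peaks in the untreated Raji samples. Copy number was not measured, so a lost sequence and an unmarked one cannot be told apart here.

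In the rest of that list of 12, CCND1 and CCND3, D cyclins that drive entry into S phase, had more signal in REH. CCND2, the remaining D cyclin of the list, was not called in favour of REH. CCND1 had 0.427, 0.428 and 0.335 in Raji and 1.45, 1.45 and 1.38 in REH (log2 -1.86, adjusted p = 3.58e-07), and CCND3 was also higher in REH (log2 -1.04, adjusted p = 1.52e-05). MYCN, a MYC family member, had 1.27, 1.38 and 1.15 in REH alone. MYC itself, which is translocated to an immunoglobulin locus in Burkitt lymphoma, had 2.02, 1.72 and 2.07 in Raji and 2.28, 2.29 and 2.21 in REH, a log2 difference of -0.23 ± 0.11 that limma did not call (adjusted p = 0.115). The CDK inhibitors CDKN1A and CDKN1B differed in opposite directions, p21 (CDKN1A) higher in REH (log2 -1.13, adjusted p = 5.38e-05) and p27 (CDKN1B) higher in Raji (log2 0.41, adjusted p = 0.00571).

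HOX genes, which set position in the embryo and recur in leukemias, differed mainly in presence. Of 24 HOX genes and cofactors, only 4 were tested, of which 2 were higher in REH and 2 were not called. A further 4 were called in REH alone, 2 in Raji alone, and 9 had no region. HOXA9 (1.48, 1.71 and 1.68), HOXA13 (1.72, 1.74 and 1.94), HOXA4 (1.60, 1.48 and 1.66) and HOXB9 (1.14, 1.04 and 1.22), all developmental homeobox factors, were called in REH alone. HOXB3 and HOXB4 share a region, which had 0.583, 0.514 and 0.853 in Raji alone. HOXA3 and HOXA6 also share a region, higher in REH by total signal (log2 -0.68, adjusted p = 0.000226), with a signal per called base of 0.28 (adjusted p = 0.174) and a maximum of -0.07 (adjusted p = 0.78). Ribosomal protein genes, which every cell expresses, were a reference group. Of 20, 1 was higher in Raji, 4 were higher in REH, 5 were not called and 10 were called in some samples. Their median log2 difference was -0.30. RPL13 (log2 -1.49, adjusted p = 6.64e-06), RPS18 (log2 -1.14, adjusted p = 0.000288) and RPS23 (log2 -0.82, adjusted p = 0.00143) were higher in REH, RPS23 with a signal per called base of 0.21 and a maximum of -0.44, neither called.

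Markers of the T cell and of the erythroid and megakaryocyte lineages were mostly without a region, myeloid ones less so. Of all 19962 protein-coding genes, 7024 had no region. Of 9 T cell genes, 7 had no region, among them the T cell receptor chains CD3D, CD3E and CD3G, and the summed signal was 0.909 to 1.24 in Raji and 1.92 to 2.04 in REH. CD247, the zeta chain, was higher in REH (log2 -0.46, adjusted p = 0.0166), a call lost without Raji replicate 1, REH replicate 1 or REH replicate 2 (adjusted p up to 0.0694), and its signal per called base differed by 0.01. CD8A had 0.537, 0.579 and 0.602 in REH alone. Of 11 myeloid genes, 5 had no region (CEBPA, LYZ, CD14, ELANE and AZU1) and none was tested, with sums of 0 to 1.24 in Raji and 5.87 to 7.61 in REH. CSF1R, the receptor of macrophage growth factor, had 2.89, 2.87 and 2.35 in REH alone. Of 9 erythroid and megakaryocyte genes, 7 had no region, and ITGA2B (0.452, 0.581 and 0.584) and GP9 (0.659, 0.619 and 0.513), platelet surface proteins, were called in REH alone, with sums of 0 in Raji and 1.10 to 1.20 in REH. The part of these genes in the differences between the lines was not tested.

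Over the whole genome, the gene-start regions with the greatest differences in favour of REH were wide there. BAHCC1, a chromatin reader, led with 0.637, 0.459 and 0.689 in Raji and 15.4, 19.5 and 18.0 in REH (chr17:81391261-81416900, log2 -4.90 ± 0.15, adjusted p = 2.5e-10). Its called length was 1853 bp in Raji and 23913 bp in REH, and the signal per called base differed by -1.55. The next were the shared start of INTS3 and SLC27A3 (log2 -3.80), KCNN1, LENG9 (-3.53), MAPK13, a p38 kinase (-3.35), the region of GRIN1 and LRRC26 (-3.34), the shared start of HPS4 and SRRD (-3.33) and ADGRB2, an adhesion receptor (-3.32). The Raji and REH samples did not overlap at any of the 8, as the naming rule required. Among starts called in REH alone, the strongest were BLACE, a gene named for its expression in B cell acute lymphoblastic leukemia, with LINC03010 (18.7, 22.9 and 21.7), ERG, TNS1 (9.17, 10.2 and 9.60), CBFA2T3 (5.94, 7.38 and 7.84), ELFN1 (6.17, 7.23 and 7.65) and LIMS2 with MYO7B (6.52, 7.05 and 6.17). CBFA2T3 encodes a corepressor of blood progenitors and TNS1 a focal adhesion protein.

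Among the starts highest in Raji, LINC01410, a non-coding RNA near the centromere of chromosome 9, had 13.0, 12.7 and 13.6 in Raji and 0.751, 0.859 and 0.976 in REH (log2 3.93 ± 0.12, adjusted p = 2.5e-10). It was followed by CD27, CTSZ, a lysosomal protease (log2 3.45), IL21R, the receptor of a cytokine that helps B cells (3.26), PTAFR, the platelet-activating factor receptor (3.21), SLC2A5, a fructose transporter (3.21), RUNX3, a RUNX family factor (3.19) and CD37, a tetraspanin of B cells (3.14). RUNX3 had 3.61, 3.49 and 3.74 in Raji and 0.411, 0.388 and 0.387 in REH, and its called length was 9180 bp against 1883 bp. At LINC01410, CTSZ, IL21R, PTAFR and CD37 the signal per called base was also called higher in Raji, at RUNX3 it was not (log2 0.49, adjusted p = 0.0769). Starts called in Raji alone with the highest signal were KCNN3, a potassium channel of the same family as KCNN1 (8.38, 8.97 and 9.61), PVRIG, an inhibitory receptor of lymphocytes (5.08, 5.79 and 5.66), WNT10A (3.90, 5.96 and 5.71), KHDC1 (5.02, 4.59 and 5.24), NUP210 (4.67, 5.06 and 4.90) and MEF2B. Within this channel family, KCNN1 thus had the stronger mark in REH and KCNN3 in Raji.

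At distal places, 3 of the 6 leading regions in favour of REH lay in an intron of CCDC200 (chr17:43244351-43287100), with log2 differences of -3.47, -3.39 and -3.25. These 3 repeat the same sequence. Of the 30-base words of the shorter region of each pair, 86.5% to 94.5% were also found in the other, and the 300-base windows of 2 of them were identical over 298 bases, so their reads may not be separable and the 3 may not be independent. The strongest of them had 16.1, 17.9 and 18.7 in REH and 1.27, 2.06 and 1.79 in Raji. They were followed by a region 23520 bp from the start of PTMA (-3.26), one in an intron of ESYT2 (-3.15) and one on the short arm of chromosome 21 whose nearest gene, TPTE, starts 5399628 bp away (-3.05, signal per called base -0.15). In Raji the leading region lay near TOP3B (chr22:22025051-22027220), where GENCODE 44 places the first segment of the immunoglobulin lambda locus, with 2.62, 2.37 and 2.11 in Raji and 0.329, 0.411 and 0.380 in REH (log2 2.67 ± 0.14, adjusted p = 1.05e-08). Introns of SCN4A (2.53), ARPC1B, an actin nucleation subunit (2.5), LILRB1, an inhibitory leukocyte receptor (2.21), and PPP1R16B (1.96), and an exon of STMN3 (2.02), came next. The same rule kept distal regions with separate Raji and REH samples.

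BAHCC1 and CBFA2T3 recurred among the distal regions called in a single line. For REH, the strongest were introns of NBDY (chrX:56761891-56782830, with 12.6, 15.3 and 14.7), BAHCC1 (6.07, 8.01 and 7.68), CBFA2T3 (5.53, 6.69 and 6.38) and GSE1 (4.87, 5.65 and 5.94), and windows of BAHCC1 and CBFA2T3 are printed above. Introns of MAD1L1 held 9 distal regions called in REH alone, those of ZMIZ1 7, and those of GSE1 and SH3RF3 6 each, and these genes were chosen after the counts were seen. For Raji the strongest were regions near FOXD4L5 in the pericentromere of chromosome 9 (6.34, 5.71 and 6.33), over the immunoglobulin constant gene IGHA1 (chr14:105707611-105712630, with 5.03, 5.27 and 4.58), and in introns of AMZ1 (3.53, 4.09 and 3.48) and KLF13 (3.02, 4.30 and 3.37).

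The immunoglobulin loci, which encode the antibody chains, were then counted, a choice made after these values were seen and without a test. In the heavy chain locus 19 of 61 regions were called in Raji alone and 1 in REH alone. The counts were 7 and 1 of 32 in the kappa locus and 14 and 2 of 39 in the lambda locus. Over all distal regions, 5.91% were called in Raji alone. Besides IGHA1, the regions included IGHG1, a constant gene (1.55, 2.09 and 2.08), IGHV4-31, a variable segment (1.42, 1.60 and 1.39), and the stretch of IGLJ1 and IGLC1, joining and constant segments of the lambda chain (3.05, 3.72 and 3.26). All 19 heavy chain regions, 5 of the 7 kappa and 12 of the 14 lambda regions were also found in treated Raji samples and not in treated REH samples.

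Sequence at the distal regions differed between the sets. The 679 windows of regions higher or called alone in Raji had a median GC content of 55.0%, the 1422 of REH 59.7%, and the 7162 other distal windows 51.0%. At least 10 CpG dinucleotides were found in 19.9%, 40.2% and 14.8% of windows in the same order, beside 78.8% at gene starts. ATGCAAAT, the octamer bound by POU2F factors, was found on either strand in 8.54% of Raji windows, 0.703% of REH windows and 4.38% of other distal windows. Outside the immunoglobulin loci, whose variable segments carry octamers in their promoters, the values were 7.51%, 0.705% and 4.11%. CACCTG, bound by E proteins such as TCF3, was found in 39.3%, 26.2% and 29.6%, and TCCCNNGGG, bound by EBF factors, in 13.0%, 19.1% and 11.3%. TGTGGTT, bound by RUNX factors, was found in 9.28%, 6.68% and 12.4%. Motifs of other factors differed as well: AGATAA of GATA factors was found in 9.57%, 4.57% and 10.7%, and TGANTCA of AP-1 in 12.2%, 7.31% and 11.8%. These shares are descriptions, since GC content differed between the sets and 15 motifs were searched.

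The difference between the lines was then read in samples that had played no part in the comparison, the H3K4me2 samples treated with 1 nM bryostatin. Of 1582 regions higher in untreated Raji that could be tested there, 98.6% had the same sign and 83.1% were called, with 1 called the other way. Of 1785 higher in untreated REH, 97.4% had the same sign and 75% were called, with 2 called the other way. Of the regions not called in untreated cells 73.1% had the same sign. Over all 7946 regions tested in treated cells, 23.6% were higher in Raji and 24.2% higher in REH. At distal regions 71 of 79 higher in Raji (89.9%) and all 147 higher in REH kept their sign. LINC01410 differed by 4.03, CTSZ by 3.27 and BAHCC1 by -5.01 on the log2 scale in treated samples.

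**Figure D3:**
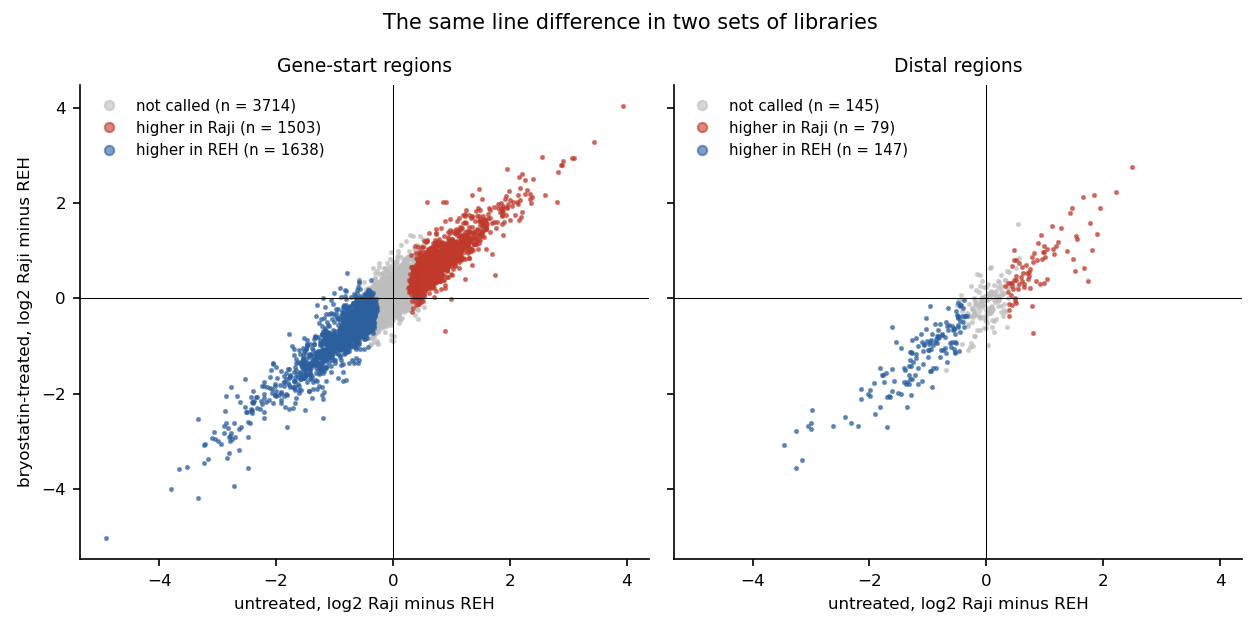
Log2 difference (Raji minus REH) in untreated samples (horizontal axis) against bryostatin-treated samples (vertical axis), 1 point per region tested in both, for gene-start regions (left) and distal regions (right); red points were higher in untreated Raji, blue points higher in untreated REH, grey points not called. Nearly all coloured points lie in the lower left or upper right, where both axes have the same sign.

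Presence was read in the treated samples in the same way. Of the 1075 regions called in untreated Raji alone, 95.7% had a peak in 3 of 3 treated Raji samples and 85.5% in none of the treated REH samples. Of the 3178 of REH, 73.5% had a peak in 3 of 3 treated REH samples and 90.6% in none of the treated Raji samples. For REH the share found again was 81.5% at gene starts and 61.3% at distal regions, and for Raji 97.0% and 94.5%. Both conditions were met by 879 of the 1075 regions of Raji and 2110 of the 3178 of REH, and at distal regions by 441 of 547 and 669 of 1262. NALM6, a precursor B cell leukemia line, had a peak in at least 2 of 3 untreated samples at 34.0% of the regions of REH alone, 11.5% of those of Raji alone and 83.0% of those called in all 6 samples. LEF1 and SOCS2 were among the genes called in 3 of 3 NALM6 samples, while SOX11 and IGF2BP1 were called in none. Their lists did not divide this way. KCNN1 and TCFL5 of the ETV6-RUNX1 list were also called in 3 of 3, and SOX4 of the precursor list in none.

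H3K4me3, which marks active starts, differed in the same direction at most of these regions. In untreated cells 6676 regions were tested for H3K4me3, 23.8% higher in Raji and 27.5% higher in REH. Of 1200 tested regions higher in Raji for H3K4me2, 81.2% had the same sign and 58.8% were called for H3K4me3, and 90 were called the other way. Of 1329 higher in REH, 78.9% had the same sign, 58.5% were called and 105 were called the other way. Among tested regions not called for H3K4me2, 57.7% had the same sign. Regions with H3K4me2 in Raji alone had H3K4me3 in at least 2 of 3 Raji samples at 66.5% of gene starts and 16.1% of distal regions. For REH the shares were 38.9% and 3.8%.

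H3K27me3, the mark of Polycomb repression, was read with a caution. The library labelled Raji H3K27me3 replicate 2 had peaks on 85.6% of the H3K4me2 regions called in all 6 samples, beside 0.825% in replicate 1, which had 817 peaks, and 11.5% in replicate 3. In replicate 3, 46.5% of the regions of REH alone had an H3K27me3 peak, beside the 11.5% of shared regions. In the 3 REH samples, the regions of Raji alone had an H3K27me3 peak in 13.5%, 8.93% and 7.72% of cases, beside 5.4%, 3.7% and 3.74% of shared regions. The regions of REH alone overlapped H3K27me3 in REH itself in 24.0%, 19.5% and 19.0%. Singled out after their values were seen, KCNN3 and SERPINA9 had an H3K27me3 peak at their start in all 3 REH samples, whereas DNTT had none in Raji.

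The called stretch of shared regions was longer in REH. Over the tested regions the median called length was 2280 bp in Raji and 2910 bp in REH, and for regions higher in REH it was 2345 bp against 3645 bp. For regions higher in Raji the lengths were 2556 bp and 2610 bp. By sample, the median peak length was 1200, 1630 and 2640 bp in Raji and 2750, 2790 and 2350 bp in REH, overlapping ranges (exact permutation p = 0.2). Total signal combines width and height. By signal per called base, 88.0% of regions higher in Raji and 90.9% of those higher in REH kept their sign, and 41.6% and 54.7% were called. Regions of at least 10 kb numbered 73 in Raji and 139 in REH, of which 41 were shared, and ERG, BLACE and DNTT were among the REH genes with called lengths above that size.

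The difference also varied by chromosome. On chromosome 7 the median log2 difference was 0.34, and 210 of 449 regions were higher in Raji and 50 in REH. On chromosome 20 it was 0.49, with 136 and 28 of 241. On chromosome 21, which carries ERG, it was -0.48, with 9 and 55 of 98. The medians in treated samples were 0.38, 0.38 and -0.56, and for H3K4me3 0.34, 0.38 and -0.55. Copy number was not measured, so it cannot be told apart from the amount of the mark. Centred within each chromosome, CTSZ on chromosome 20 differed by 2.94 in place of 3.45 and stayed called, and the totals were 1892 higher in Raji and 1704 higher in REH.

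**Figure D4:**
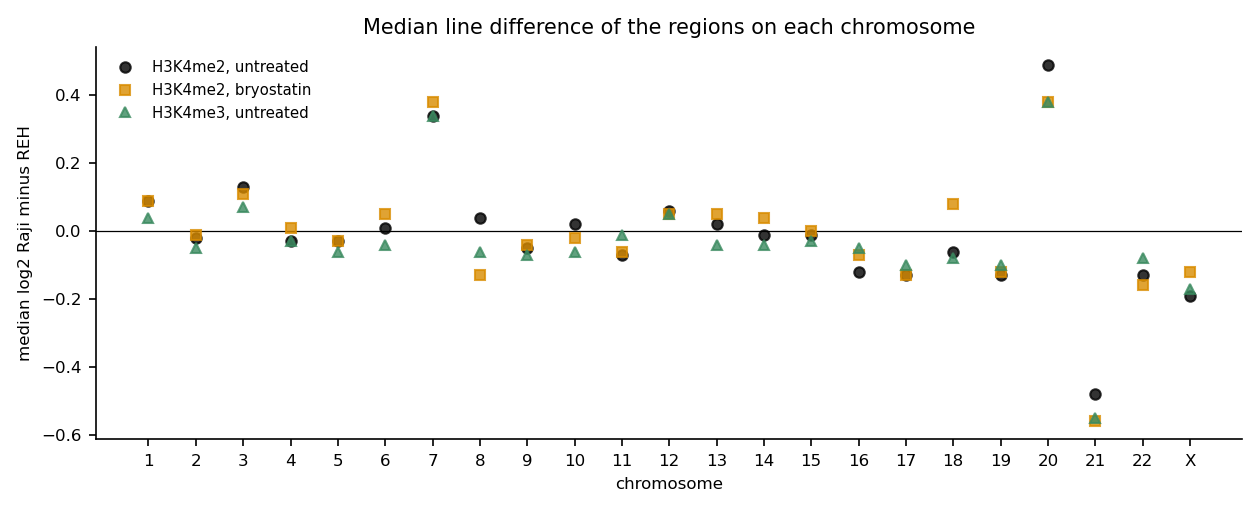
Median log2 difference, Raji minus REH, of the tested regions on each chromosome (horizontal axis), for untreated H3K4me2 (black circles), bryostatin-treated H3K4me2 (orange squares) and untreated H3K4me3 (green triangles). Chromosomes 7 and 20 lie above 0 and chromosome 21 lies below 0 in all 3 sets.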

How the data were processed

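Cut&Tag libraries of untreated Raji and REH cells were analysed as deposited. The authors trimmed the reads (Trim Galore), aligned them to hg38 (Bowtie2), normalized coverage by RPKM and called peaks in each sample with SEACR in stringent mode. The deposited signal of a peak is RPKM coverage summed over its bases, in bins of 10 bp, and its maximum. Tool versions are not given in the sources used here. Peaks overlapping by at least 1 bp were merged, and classed by protein-coding and lncRNA starts of GENCODE 44 with a window of 1 kb. Immunoglobulin segments were not among these starts. The summed log2 signal was compared with limma 3.58.1 in R 4.3.3 (eBayes with trend), on regions called in all 6 samples, at an adjusted p of 0.05. In a test on simulated data over 7999 regions, it called 70.0% and 82.0% of changes of 1.0 and -1.0 on the log2 scale, and 24.0% and 16.0% of changes of 0.5 and -0.5. Far fewer regions were changed in that simulation than were called in the data, so these shares need not hold here. A region that was not called may still differ by such amounts. Regions and sequences were handled in Python 3.11.15 with pandas 2.3.3, numpy 2.4.6 and pysam 0.24.0, exact tests with scipy 1.17.1, figures with matplotlib 3.10.9. A gene was described by its strongest start region. Up to 4 called genes with separated samples, those with the greatest difference, and up to 4 genes called in a single line were named per list, with 10 fixed genes, and the leading regions of the genome. Some genes of the lists are counted with their list but not reported here by name. Genes outside this rule were named after their values were seen. Members and lists were chosen with earlier results of these data known. Among the authors' methods, DESeq2 was used on reads, which were not analysed here.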

Additional observations from a re-analysis of the deposited data

Results flagged for a closer look

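Peaks on the EBV sequence lay outside the chromosomes compared. Raji replicates 1 to 3 had 17, 9 and 7 such H3K4me2 peaks in untreated cells, and the 3 REH samples had 0 each. The count was noted because it appeared in data that the comparisons do not use and exceeded the level in the other line. Raji carries EBV.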

How the results depend on the processing

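Raji replicate 2 had the fewest peaks, depth differed between samples, and a region without a peak may still carry the mark. Counts are of regions higher in Raji, then in REH, beside 1902 and 1842. By signal per called base they were 1043 and 1213 (gene starts 956 and 1110, distal 87 and 103). Without centring the counts were 696 and 2129, with 628 at gene starts and 68 at distal regions higher in Raji, so 24.6% of calls favoured Raji in place of 50.8%, and the median of all regions lay at -0.25. With regions called in at least 3 of 6 samples, 4549 were higher in REH (3497 at gene starts), and distal counts were 627 and 1052. In the upper 0.5 by signal there were 1070 and 1184 (gene starts 1016 and 1093, distal 54 and 91). With equal numbers of peaks 65 distal regions were higher in Raji, and with protein-coding starts alone the distal counts were 249 and 271. Leaving out each replicate gave 1392 to 2276 in all and distal counts higher in REH from 140 to 321. Regions called in Raji alone ranged from 528 to 1069 at gene starts and from 547 to 2110 at distal regions, the upper values without Raji replicate 2. With peaks in at least 2 of 3 samples they were 1075 and 2120, beside 2149 and 1693 for REH alone, and with equal numbers of peaks 1011 at gene starts. REH alone gave 732 distal regions with equal peaks, and in the upper 0.5 of peaks 1223 at gene starts and 388 at distal regions, with 174 distal for Raji. Raji minus REH differences in peak number (-195) ranged from -2550 to 2030, in the percent of peaks at starts (-4.4) from -9.58 to 0.767, and in the percent of signal at starts (-0.4) from -2.17 to 1.43. The EBF motif difference was -6.17 points in 300-base windows and -10.4 in 500-base windows. The cause of these shifts was not tested.

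Named genes that turned direction by signal per called base were CD22 (-0.44), CD247 (0.01), CD83 (-0.25), EPOR (0.06), HOXA3 and HOXA6 (0.28), LYN (-0.02), RPS23 (0.21), TNFRSF13C (-0.32), TRAF1 (-0.34) and XBP1 (0.35). By maximum signal CD72 (-0.15), GCSAM (-0.16), PAX5 (0.54) and TNFRSF13C (-0.16) turned, and by quantile normalization PAX5 (0.24). Without centring, the calls of CD22 (0.32), CD58 (0.49), CD83 (0.49), CDKN1B (0.15), HLA-DPB1 (0.57), MYBL1 (0.38), NCR3LG1 (0.59) and TNFRSF13C (0.40) were lost, and with peaks within 500 bp merged that of GCSAM (0.49). Of 1120 comparisons over 68 tested genes and regions, 1057 kept direction and call, 46 lost the call and 1 gained it. Same-numbered samples correlated at 0.16, -0.06 and -0.22, so the numbers were not read as pairs, and a replicate block gave 1808 and 1784.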
